A study of Mus musculus with 18 samples.

Results

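The change of the genotype difference between 24 h and 72 h of culture was measured in mouse duodenal enteroids, as the difference between Mtgr1-/- and WT at day 3 (D3) minus the same difference at day 1 (D1), the interaction of genotype and time. It used 12 of the 18 libraries of the series, those of the D1 and D3 enteroids. Of 16800 gene IDs listed on both days, the 12432 with a mean of at least 10 normalized counts on each day were tested, whatever their values otherwise. Crypts were taken from 3 Mtgr1+/+ (WT) mice and 3 Mtgr1-/- (null) littermates of 8 to 12 weeks, and each mouse gave 1 bulk RNA library at 24 h (D1) and 1 at 72 h (D3) after plating. The knockout was present in every cell of the animal, and the labels name no other treatment. Each genotype had 1 female and 2 male mice by sex-linked transcripts, and these calls were the same on D1 and D3 in all 6 mice.

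MTGR1, encoded by *Cbfa2t2*, is a transcriptional corepressor of the MTG family that is recruited to DNA by factors such as TCF4. Enteroids are epithelial cultures that grow from isolated crypts in a matrix gel. As background, freshly plated crypts and injured epithelium pass through a regenerative state in which YAP and TEAD factors, AP-1 and EGF family ligands are active and in which *Ly6a*, *Clu* and annexins are expressed, and WT cultures later leave it as they form buds with stem and Paneth cells. A positive interaction means that the Mtgr1-/- level moved up against WT between D1 and D3, whether because Mtgr1-/- rose or because WT fell. Values are normalized counts of each library in the order of mice 1, 2 and 3, WT before Mtgr1-/- where both follow each other, differences are on the log2(normalized count + 1) scale, and errors of an interaction are standard errors. In bulk RNA, a change in the number of cells of a type and a change in RNA per cell cannot be told apart.

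The targeted gene was not lower in the libraries labelled Mtgr1-/-. *Cbfa2t2* (ENSMUSG00000038533.15, GRCm38 chromosome 2, 154436481 to 154539356, + strand) had 788, 710.2 and 757 normalized counts in WT and 1160.3, 1008 and 789 in the libraries labelled Mtgr1-/- at D1. At D3 it had 869, 774 and 883 in WT and 892, 976 and 766 in the libraries labelled Mtgr1-/-. Its interaction was -0.32 ± 0.20 (adjusted p = 0.687, limma). Reads outside the disrupted part of the gene can still be counted, so the transcript total does not check the labels, and every direction below rests on them.

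The genotype difference changed for 61 of 12432 genes (0.491%, limma, adjusted p under 0.05). Of these, 52 (0.418%) moved up in Mtgr1-/- against WT and 9 (0.0724%) moved down. With each mouse as a fixed term instead of a random one, 174 genes (1.4%) passed, 154 (1.24%) up and 20 (0.161%) down, with 56 of the 61 among them. In all 61 genes the 3 within-mouse changes of one genotype lay entirely above those of the other, which was so for 14.7% of the genes tested. For a single gene, 3 mice against 3 cannot give an exact permutation p under 0.1. The genotype difference itself passed the test for 64.7% of the genes at D1 and 59.2% at D3. The median interaction over all genes was 0.016.

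The difference widened for 40 of the 61 genes, narrowed for 10 and reversed its sign with a call on both days for 11. Outside the reversed class, widened means a larger absolute difference at D3 than at D1, whatever its sign, and narrowed a smaller one. By comparison, 37.8% of all genes tested were in the widened class. At D1, 8 of the 40 widened genes were lower in Mtgr1-/- and 32 were higher. Among the widened genes, 39 were higher in Mtgr1-/- at D3 and 1, *Gm1123*, was lower. The median difference of the 39 was 0.42 at D1 and 2.80 at D3. Of the 61 genes, 23 had a called genotype difference at D3 but not at D1, 5 at D1 but not at D3, and 33 on both days.

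**Figure D1:**
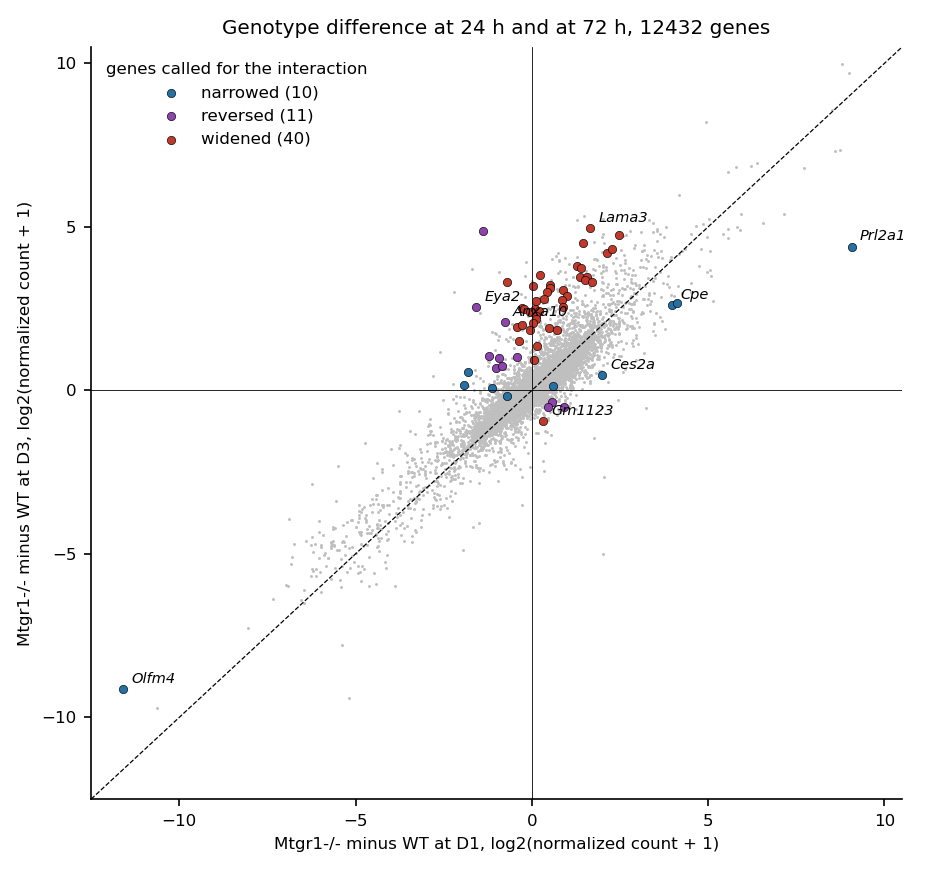
Each point is 1 of 12432 genes, with the Mtgr1-/- minus WT difference at D1 on the x axis and at D3 on the y axis, both on the log2(normalized count + 1) scale, and the dashed line marks equal differences. Coloured points are the 61 genes called for the interaction, 40 widened, 10 narrowed and 11 reversed, and 52 of them lie above the line.

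For most of the 52 genes that moved up, the larger change was in WT. The median change from D1 to D3 was -1.81 in WT and 0.59 in Mtgr1-/-. All 3 WT mice fell in 45 of the 52 genes, and all 3 Mtgr1-/- mice rose in 38 and fell in 10. The WT change was larger in size than the Mtgr1-/- change in 36 of them. For the 9 genes that moved down, the median change was 0.36 in WT and -0.98 in Mtgr1-/-, and all 3 Mtgr1-/- mice fell in all 9. The D1 and D3 tables were normalized separately, so a change within a genotype is a description across tables. Its median over all genes was 0.075 in WT and 0.097 in Mtgr1-/-.

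Mtgr1-/- mouse 2 stood apart from the other Mtgr1-/- mice in its change over time, and the number of calls depended on it. The standard deviation over genes of its change minus the mean change of the other 2 Mtgr1-/- mice was 0.69, against 0.529 and 0.523 for Mtgr1-/- mice 1 and 3 and 0.423 to 0.444 for WT mice. Without Mtgr1-/- mouse 2, 2786 genes (22.4%) passed, 1567 up and 1219 down, with all 61 genes among them. When Mtgr1-/- mouse 1 or mouse 3 was left out instead, 3 and 2 genes passed. Without WT mouse 1, 2 or 3, the counts were 8, 37 and 0, so that each of the 6 mice moved the count by over 1.5 times. In the fit without WT mouse 3, 687 genes still had an unadjusted p under 0.05. On the recovered reads of 11 libraries, which leave out the D3 library of Mtgr1-/- mouse 2, edgeR and DESeq2 were run without a mouse term. Of the 12432 genes, edgeR called 147, 99 up and 48 down, and DESeq2 577, 311 up and 266 down. The edgeR and DESeq2 counts given for gene lists below are from these 11 libraries and stand beside these counts over all genes. The sign of the interaction was kept for all 61 genes in every alternative that tested them. Their within-mouse changes did not overlap between genotypes, so leaving out a mouse could not turn the sign. In those fits the kept sign is no further evidence. What set Mtgr1-/- mouse 2 apart was not tested. Counts without this mouse below rest on Mtgr1-/- mice 1 and 3 and on a choice made after its values were seen.

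**Figure D2:**
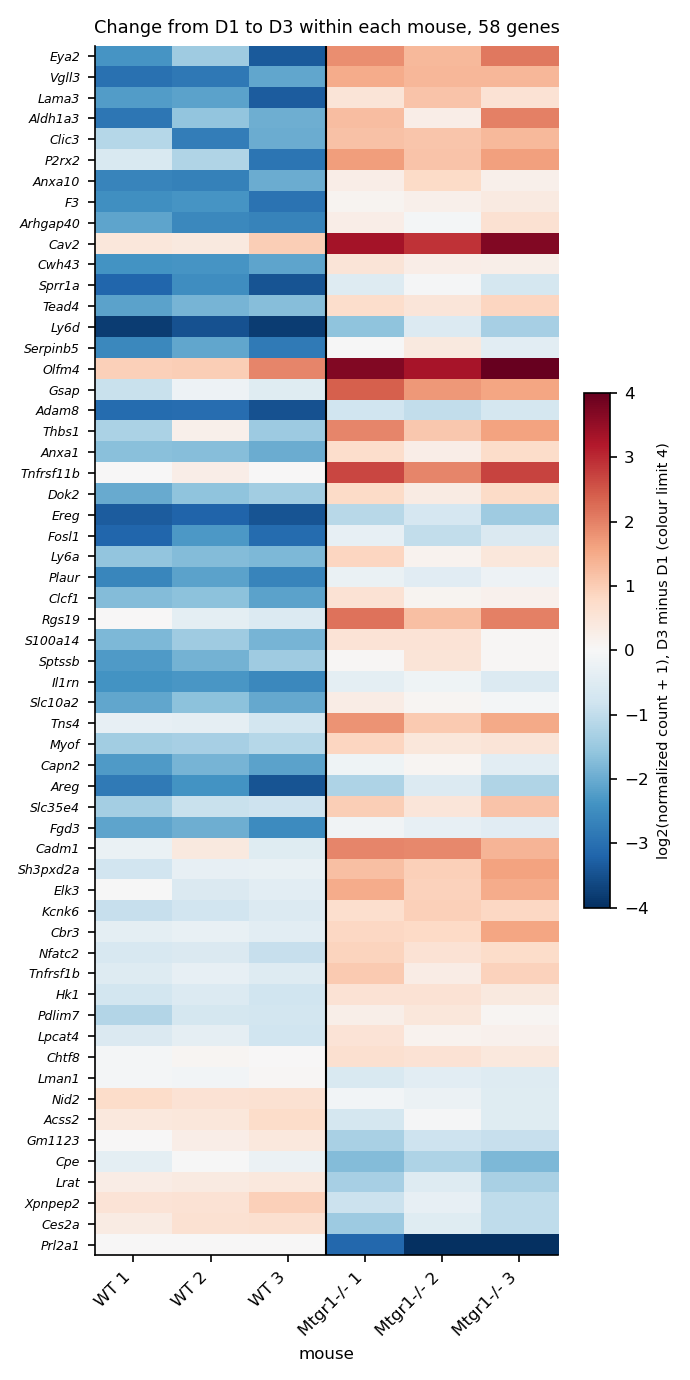
Rows are 58 of the 61 genes called for the interaction, ordered by its size, and columns are the 6 mice. The colour gives the change from D1 to D3 within a mouse on the log2(normalized count + 1) scale, red for higher at D3 and blue for lower, and colours saturate at 4. Most of the upper rows are blue in the 3 WT mice and pale or red in the 3 Mtgr1-/- mice, and the 9 lowest rows are blue in all 3 Mtgr1-/- mice.

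Genes of the regenerative and YAP target list held the most calls of any list. Of its 29 tested members, 9 moved up in Mtgr1-/- against WT and 0 moved down, beside 0.418% of all genes up. The median interaction of the 29 was 1.64, with a median difference of 0.72 at D1 and 2.52 at D3. In the fits with a fixed mouse term and without Mtgr1-/- mouse 2, 19 and 23 members moved up, beside 1.24% and 12.6% of all genes. Without that mouse 1 member, *Cxadr*, moved down, beside 9.81% of all genes. The list was written with earlier results of these data known and is not independent evidence of its direction.

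*Sprr1a*, a cornified envelope protein also induced in regenerating gut, had the lowest adjusted p of the list. Its normalized counts were 1652, 989 and 1449 in WT and 1449.5, 1216 and 1681 in Mtgr1-/- at D1, with overlapping groups. WT had 182, 175 and 132 left at D3, when Mtgr1-/- had 1007, 1189 and 1027, so that all WT libraries had fallen below all Mtgr1-/- libraries. The interaction was 2.62 ± 0.27 (adjusted p = 0.00384). *F3*, tissue factor, the receptor that starts the extrinsic clotting cascade, followed the same course. It had 2836, 1658 and 2357 in WT and 2019.8, 2032 and 1481 in Mtgr1-/- at D1, and 518, 322 and 302 against 2163, 2338 and 1882 at D3. Its difference went from -0.29 to 2.52, an interaction of 2.81 ± 0.34 (adjusted p = 0.00524).

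*Ly6a*, which encodes the surface protein Sca-1 and marks regenerating epithelium, already differed at D1 and diverged further. WT libraries had 639, 463 and 572 at D1 and 215, 139 and 165 at D3, and Mtgr1-/- libraries had 992, 1195 and 912 and 1816, 1329 and 1243. Each WT mouse fell and each Mtgr1-/- mouse rose, which gave an interaction of 2.19 ± 0.28 (adjusted p = 0.00787). *Ly6d*, of the same gene family, fell in both genotypes, by 3.69 on the log2 scale in WT and by 1.17 in Mtgr1-/-. *Anxa1*, annexin A1, a phospholipid-binding protein, went from a difference of 1.40 to 3.75 (interaction 2.35 ± 0.42, adjusted p = 0.0388). *Il1rn*, the antagonist of the interleukin-1 receptor, had 1443, 955 and 1536 in WT and 7539, 4939 and 6416 in Mtgr1-/- at D1, and 276, 189 and 257 against 5759, 4402 and 4376 at D3. The groups of *Il1rn* did not overlap on either day, and its interaction was 2.06 ± 0.31 (adjusted p = 0.0199).

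Other members of the list did not pass with all mice. *Clu*, clusterin, the eponymous revival stem cell marker, had 1252, 799 and 969 in WT and 8487, 7898 and 2840.1 in Mtgr1-/- at D1, and 1358, 916 and 1279.7 against 30995, 20413 and 19317 at D3. Its difference was 2.54 at D1 and 4.30 at D3, and its interaction was 1.76 (95% interval 0.61 to 2.92, adjusted p = 0.225). With each mouse as a fixed term *Clu* passed (adjusted p = 0.036). Leaving out Mtgr1-/- mouse 2, it was 2.08 (adjusted p = 0.00751). *Anxa8* had an interaction of 3.45 (adjusted p = 0.103) and *Krt7*, a simple epithelial keratin, 1.40 (adjusted p = 0.0646). The matricellular YAP targets differed from each other in size, with 1.64 for *Ccn2* (adjusted p = 0.242) and 0.61 for *Ccn1* (adjusted p = 0.722). *Birc5*, a YAP target that also serves in mitosis, had 0.12 (95% interval -0.47 to 0.71, adjusted p = 0.927), and 28 of the 29 members had a positive value.

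The difference also widened for *Tead4*, *Vgll3* and *Fosl1*, which were outside that list and were grouped here after their values were seen. *Tead4*, a DNA-binding partner of YAP, had 174, 119 and 137 in WT and 249.6, 200.1 and 135 in Mtgr1-/- at D1, where the groups overlapped. At D3 it had 38.5, 32.1 and 41.6 against 409.6, 282 and 247, with no overlap (interaction 2.59 ± 0.37, adjusted p = 0.0159). *Vgll3*, a TEAD cofactor, went from -0.72 to 3.31, an interaction of 4.02 ± 0.70 (adjusted p = 0.0342). *Fosl1*, a subunit of AP-1, had 21.5, 26.7 and 27.1 in WT at D3 against 182, 114 and 127 in Mtgr1-/-, after 204, 134 and 235 against 229, 227 and 191 at D1. It was the member called among 25 tested immediate early genes, whose median interaction was 0.26. *Cav2*, caveolin 2, differed in course from these genes. It had 20.1, 20.8 and 25.1 at D1 and 27.8, 27.6 and 50.3 at D3 in WT and went from 32.7, 44.6 and 22.1 to 337, 335 and 296 in Mtgr1-/- (interaction 2.70 ± 0.42, adjusted p = 0.022).

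Among the 6 widened genes with the largest interaction at a mean of at least 50, *P2rx2*, an ATP-gated ion channel, had 29.3, 24 and 57.8 in WT and 118, 97.7 and 75 in Mtgr1-/- at D1, and 18.8, 9.8 and 6.78 against 375, 218 and 235 at D3. Its groups were separate on both days (interaction 3.06 ± 0.57, adjusted p = 0.0427). *Arhgap40*, which encodes a GTPase-activating protein, had 114, 85.4 and 85.5 against 92.1, 119 and 48.5 at D1 and 26, 13.4 and 12.6 against 110.4, 112 and 74.1 at D3. WT libraries alone moved far in this gene, and the groups overlapped only at D1 (interaction 2.71 ± 0.52, adjusted p = 0.0492).

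**Figure D3:**
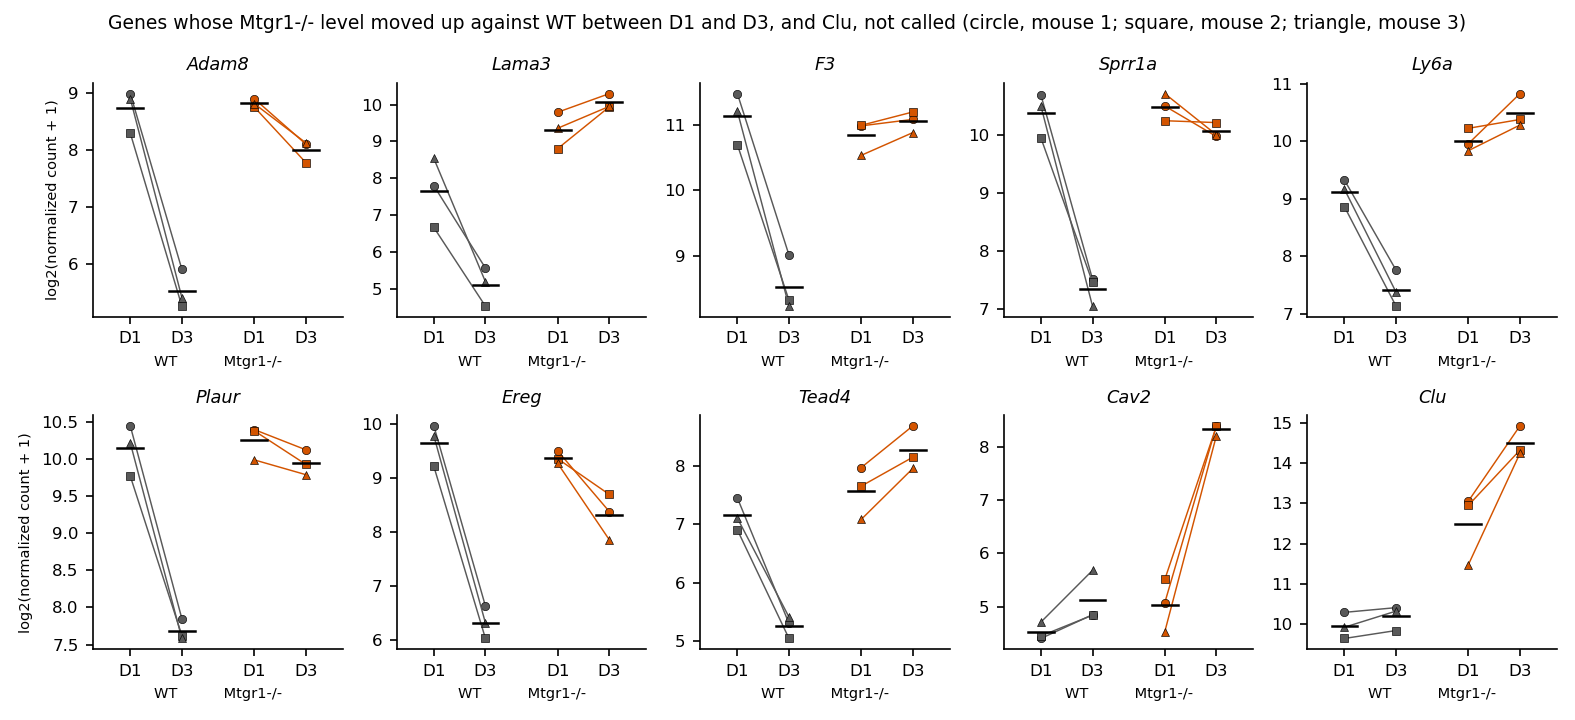
Each panel plots 1 gene as log2(normalized count + 1) per library, with lines joining the D1 and D3 libraries of a mouse, grey for WT and orange for Mtgr1-/-, and black bars for group means. In 8 panels the WT lines fall steeply while the Mtgr1-/- lines fall less or rise, and in the panels of Cav2 and Clu the Mtgr1-/- lines rise and the WT lines stay low. Clu was not called for the interaction with the mouse as a random term (adjusted p = 0.225) and passed with the mouse as a fixed term (adjusted p = 0.036).

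The sequence upstream of the start site is shown for 4 of these genes, since letters of the AP-1 motif recurred there. RefSeq start sites (GRCm38.p6) were matched for 37 of the 61 genes, 31 of which moved up. The AP-1 letters TGANTCA, which read the same on both strands, were found within 250 bases upstream of 10 of the 31 (*Cav2*, *Slc10a2*, *Capn2*, *Il1rn*, *F3*, *Anxa10*, *Plaur*, *Sprr1a*, *Serpinb5* and *Arhgap40*) and of 0 of the 6 that moved down. By comparison, 5.66% of the 9907 tested genes with a matched start site and 6.75% of all 32851 windows of this length held them. The TEAD letters GGAATG, read on both strands, were found in 4 of the 31, in 3 of the 6 that moved down (*Acss2*, *Lrat* and *Xpnpep2*) and in 12.9% of the tested genes. The windows printed are those of the 4 genes with the lowest adjusted p among the 10, 5′ to 3′ on the strand of the gene and ending at the base before the start site, and capitals mark the AP-1 letters. A match is a description of letters and not of a bound site.
Sprr1a (chr3:92485882-92486131, - strand): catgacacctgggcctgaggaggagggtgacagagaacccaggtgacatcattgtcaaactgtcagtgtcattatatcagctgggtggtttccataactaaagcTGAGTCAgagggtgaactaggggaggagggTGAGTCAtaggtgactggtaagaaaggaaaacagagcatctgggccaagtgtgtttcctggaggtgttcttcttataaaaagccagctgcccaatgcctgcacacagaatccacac
F3 (chr3:121723287-121723536, + strand): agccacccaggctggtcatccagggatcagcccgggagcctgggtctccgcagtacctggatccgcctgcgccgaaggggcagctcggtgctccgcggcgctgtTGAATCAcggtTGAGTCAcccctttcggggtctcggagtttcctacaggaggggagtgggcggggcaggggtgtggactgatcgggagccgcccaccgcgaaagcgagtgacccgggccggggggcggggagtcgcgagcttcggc
Plaur (chr7:24462233-24462482, + strand): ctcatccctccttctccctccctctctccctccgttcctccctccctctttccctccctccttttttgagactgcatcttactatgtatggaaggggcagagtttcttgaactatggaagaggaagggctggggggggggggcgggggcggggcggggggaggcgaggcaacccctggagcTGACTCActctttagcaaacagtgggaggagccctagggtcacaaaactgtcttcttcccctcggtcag
Anxa10 (chr8:62123194-62123443, - strand): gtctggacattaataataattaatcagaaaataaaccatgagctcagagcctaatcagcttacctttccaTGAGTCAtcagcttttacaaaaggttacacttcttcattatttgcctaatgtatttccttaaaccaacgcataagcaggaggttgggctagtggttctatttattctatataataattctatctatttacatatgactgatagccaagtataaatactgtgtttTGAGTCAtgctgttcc

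*Ereg* and *Areg*, ligands of the EGF family, were lower at D3 than at D1 in both genotypes, and by more in WT. *Ereg*, epiregulin, had 997, 593 and 877 in WT and 722, 653 and 615 in Mtgr1-/- at D1. At D3 it had 97.7, 64.1 and 78.4 against 331, 413 and 230.2, an interaction of 2.26 ± 0.35 (adjusted p = 0.0199). *Areg*, amphiregulin, had 3200.0, 1840.1 and 3378 against 2803, 1966 and 3205 at D1, then 447, 348 and 311 against 1187, 1345 and 1390.1 at D3. The groups of both ligands overlapped at D1 and were separate at D3, with an interaction of 1.89 ± 0.34 for *Areg* (adjusted p = 0.0388). These were the 2 members called among 21 tested ligands and receptors, whose median interaction was 0.046. Betacellulin (*Btc*) had an interaction of 0.99 (adjusted p = 0.145) and *Hbegf* of 0.68 (adjusted p = 0.603). Of the receptors, *Fgfr3* had -1.01 (adjusted p = 0.121).

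Of 32 tested integrin, laminin and matrix genes, 5 moved up and 0 moved down, beside 0.418% of all genes up, with a median interaction of 0.53. In the fit without Mtgr1-/- mouse 2, 12 moved up, beside 12.6% of all genes. *Lama3* encodes a chain of laminin-332, the anchoring laminin of epithelial basement membranes. *Lama3* had 222, 101 and 371 in WT and 885, 447 and 655 in Mtgr1-/- at D1, and 46.6, 22.3 and 35.8 against 1255, 979 and 988 at D3. Its groups were separate on both days and its difference went from 1.65 to 4.96 (interaction 3.31 ± 0.61, adjusted p = 0.0425).

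*Plaur*, the urokinase receptor, which focuses plasmin activity at the cell surface, had 1394, 872 and 1189 in WT and 1347, 1332 and 1015 in Mtgr1-/- at D1. WT fell to 229, 196 and 191 at D3 while Mtgr1-/- had 1115, 973 and 884 (interaction 2.15 ± 0.25, adjusted p = 0.00497). *Serpinb5*, maspin, a member of the serpin family, went from 0.33 to 2.80, an interaction of 2.47 ± 0.47 (adjusted p = 0.0437). *Adam8*, a membrane metalloprotease outside the list, fell by 3.21 on the log2 scale in WT and by 0.82 in Mtgr1-/- (interaction 2.39 ± 0.31, adjusted p = 0.00787). *Thbs1*, thrombospondin 1, was the exception in form. It was lower in Mtgr1-/- at D1, with 128, 175 and 133 against 761, 331 and 536 in WT, and at D3 Mtgr1-/- had 504, 369 and 408 and WT 319, 384 and 197, where the groups overlapped (interaction 2.37 ± 0.43, adjusted p = 0.0388).

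Metabolic genes moved in both directions. *Slc10a2*, the apical bile acid transporter, overlapped between genotypes at D1, with 168, 107 and 129.9 in WT and 126, 156 and 128 in Mtgr1-/-, and was separate at D3, with 39.4, 33.8 and 31 against 156, 164 and 121 (interaction 2.01 ± 0.29, adjusted p = 0.0168). It was the 1 called of 19 tested bile acid genes, whose median interaction was -0.037 with 8 positive. Without Mtgr1-/- mouse 2, 1 of these moved up and 6 down, beside 12.6% and 9.81% of all genes. *Cbr3*, a carbonyl reductase regulated by NRF2, rose in Mtgr1-/- from 3390.0, 3991 and 2863 to 6076, 6868 and 8491 while WT had 2382, 2251 and 2704 against 1802, 1837 and 2014 (interaction 1.44 ± 0.20, adjusted p = 0.0144). It was the 1 called of 32 tested antioxidant genes, whose median interaction was 0.32 with 26 positive, and *Nqo1* had 0.84 (adjusted p = 0.143). Of the 32, 12 had an unadjusted p under 0.05 in limma, beside 9.07% of all genes. DESeq2 called 9 members up and 1 down, and edgeR 2 up and 0 down. Without Mtgr1-/- mouse 2, 10 members moved up and 3 down, beside 12.6% and 9.81% of all genes. *Hk1*, a hexokinase, had an interaction of 1.21 ± 0.23 (adjusted p = 0.0437) as the 1 called of 27 glycolysis and hypoxia genes. It ran opposite to that list, whose median interaction was -0.10 with 8 of 27 positive. DESeq2 called 1 member up and 8 down. Without Mtgr1-/- mouse 2, 2 members moved up and 10 down, beside 12.6% and 9.81% of all genes. *Aldh1a3*, which makes retinoic acid, went from 0.23 to 3.54 (interaction 3.31 ± 0.56, adjusted p = 0.032). *Lrat*, which stores retinol as ester, had 177, 183 and 152 in WT and 336, 303 and 319 in Mtgr1-/- at D1 and 218, 233 and 204 against 132, 212 and 128 at D3, where mouse 2 overlapped with WT (interaction -1.41 ± 0.26, adjusted p = 0.0425).

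Reversal took 2 forms. *Anxa10*, *Eya2*, *Tns4*, *Sh3pxd2a*, *Kcnk6* and *Nfatc2* were among the genes that were lower in Mtgr1-/- at D1 and higher at D3. *Anxa10*, an annexin of gastric and gut epithelium, had 3454, 2164 and 2980.3 in WT and 1566, 1769 and 1603 in Mtgr1-/- at D1, and 553, 329 and 747 against 1900.1, 2996 and 1827 at D3. The order of the genotypes changed with no overlap on either day, with an interaction of 2.86 ± 0.41 (adjusted p = 0.0158). *Kcnk6*, a background potassium channel, had 354, 308 and 322 against 206, 168 and 174 at D1 and 185, 179 and 218 against 331, 323 and 313 at D3, with an interaction of 1.58 ± 0.18 (adjusted p = 0.00438). The focal adhesion protein tensin 4 (*Tns4*) had 1219, 965 and 1534 against 653, 691 and 570.2 at D1 and 961, 748 and 924 against 2268, 1425 and 1644 at D3. These groups were also separate on both days, in opposite order, and the interaction was 1.93 ± 0.28 (adjusted p = 0.0159). The invadopodium scaffold *Sh3pxd2a* had 1.71 ± 0.32 (adjusted p = 0.0425). In the other direction, *Lrat*, *Acss2* and the basement membrane nidogen *Nid2* were higher in Mtgr1-/- at D1 and lower at D3.

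Narrowing from a higher D1 level was seen for *Xpnpep2*, *Ces2a*, *Cpe*, *Prl2a1* and *Lman1*. *Xpnpep2*, a brush border aminopeptidase, had 144, 134 and 101 in WT and 2246, 2004 and 2289.7 in Mtgr1-/- at D1. At D3 it had 209.7, 203 and 198 against 1239, 1602 and 1142, still with no overlap (interaction -1.42 ± 0.21, adjusted p = 0.0199). *Ces2a*, a carboxylesterase, had 4974, 5228 and 4732 against 23755, 16344 and 19417 at D1 and 6189, 7995 and 7317 against 8598, 11738 and 9668 at D3, so its difference went from 1.98 to 0.48 (adjusted p = 0.0157). *Cpe*, carboxypeptidase E, which trims prohormones, was higher in Mtgr1-/- on both days, with 6839.5, 4114 and 5906 falling to 2076, 1747 and 1692 while WT had 386, 317 and 339 against 294, 315 and 286 (interaction -1.37 ± 0.23, adjusted p = 0.032). It was the 1 called of 29 tested enteroendocrine genes, a list whose median difference was -5.16 at D1, opposite to *Cpe*. *Prl2a1*, of the prolactin family, was listed at 0 in all 6 WT libraries and fell in Mtgr1-/- from 259, 623 and 963 to 28.4, 9.94 and 28.1, so its fitted interaction (-4.68, adjusted p = 0.027) is the change within Mtgr1-/- and depends on the pseudocount. *Lman1*, a cargo receptor of the early secretory pathway, had an interaction of -0.47 ± 0.091 (adjusted p = 0.0498), which did not pass with a fixed mouse term (adjusted p = 0.119).

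Narrowing from a lower D1 level was seen for *Olfm4*, *Thbs1*, *Rgs19*, *Tnfrsf1b* and *Chtf8*. *Rgs19*, a regulator of G protein signalling, had 66.8, 60.4 and 94.7 in WT and 15.2, 24.7 and 16.5 in Mtgr1-/- at D1 and 67.2, 46.3 and 63.9 against 71.7, 57.7 and 69.6 at D3, where the groups overlapped (interaction 2.10 ± 0.37, adjusted p = 0.0388). *Tnfrsf1b*, a TNF receptor, went from -1.13 to 0.083 (adjusted p = 0.0404). *Chtf8*, a subunit of an alternative replication clamp loader, went from -0.71 to -0.17 (adjusted p = 0.0498, and 0.0842 with a fixed mouse term). The predicted gene *Gm1123* was the 1 called gene that widened with a lower level in Mtgr1-/- at D3, after a higher one at D1 that did not pass the test, with 4158, 4048 and 3492 in WT and 4696, 4294 and 5485 in Mtgr1-/- at D1 and 4222, 4836 and 4641 against 1926, 2437 and 2865 at D3 (interaction -1.24 ± 0.20, adjusted p = 0.0277). *Acss2*, which makes acetyl-CoA from acetate, was the 1 called of 33 tested cholesterol and fatty acid synthesis genes (interaction -0.97 ± 0.16, adjusted p = 0.0285, and 0.0507 with a fixed mouse term). The median of that list was -0.36, with 31 of 33 values negative, and without Mtgr1-/- mouse 2, 19 of the 33 moved down and 0 up, beside 9.81% of all genes down.

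**Figure D4:**
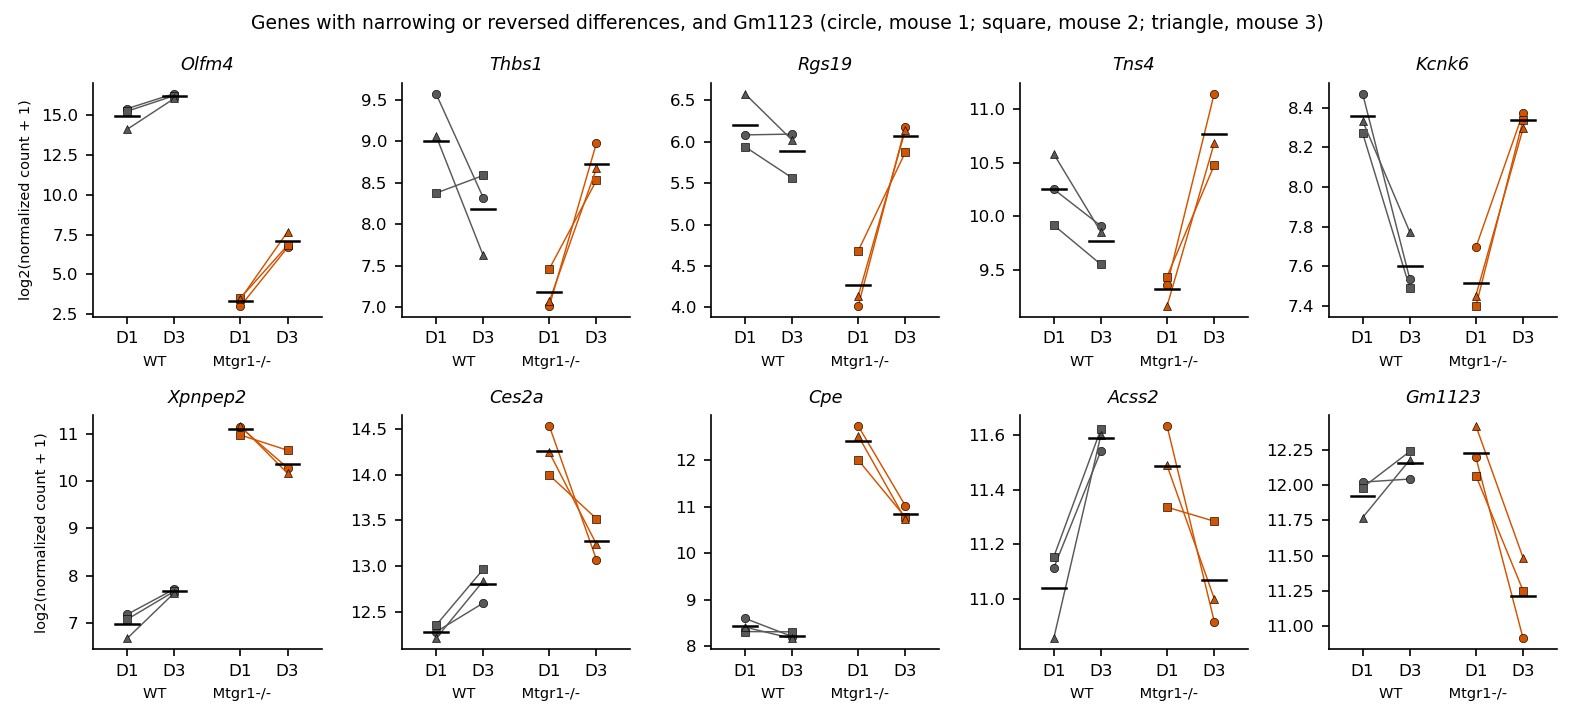
Each panel plots 1 gene as log2(normalized count + 1) per library, with lines joining the D1 and D3 libraries of a mouse, grey for WT and orange for Mtgr1-/-, and black bars for group means. In the upper row the Mtgr1-/- lines rise from below WT, and those of Tns4 and Kcnk6 end above WT. In the lower row the Mtgr1-/- lines fall, and those of Acss2 and Gm1123 end below WT.

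Of 29 stem cell genes tested, *Olfm4*, a marker of crypt base stem cells, was the 1 called. Its normalized counts were 43254, 38689 and 17576 in WT and 7, 10.4 and 9.93 in Mtgr1-/- at D1 and 83227, 76332 and 67570.4 against 102, 112 and 203 at D3. The gene rose in all 6 mice and rose more in Mtgr1-/-, from a difference of -11.59 to -9.14 (interaction 2.45 ± 0.47, adjusted p = 0.0486), and remained far below WT. The Mtgr1-/- levels at D1 were near the floor. Over the alternatives the interaction of *Olfm4* was 1.76 to 3.26, and it passed in 15 of 34. *Lgr5*, the receptor that marks the same cells, had 725, 914 and 816 in WT and 77, 97.7 and 58.5 in Mtgr1-/- at D1 and 2326, 1847 and 1412 against 105, 75.6 and 68.5 at D3. Every WT mouse had more *Lgr5* at D3, and the interaction was -1.06 (95% interval -1.78 to -0.34, adjusted p = 0.25), opposite in sign to *Olfm4* and not past the threshold. The median of the list was 0.037, and DESeq2 called 7 members up, beside 311 of all 12432 genes. In the fit that left out Mtgr1-/- mouse 2, 11 of the 29 moved up and 1 moved down, beside 12.6% of all genes up and 9.81% down, with a median of 0.34.

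*Axin2*, a Wnt feedback gene, had differences of -3.25 at D1 and -3.28 at D3, with an interaction of -0.034 (95% interval -0.73 to 0.66, adjusted p = 0.988). The stem cell transcription factor *Ascl2* had -0.36 (-1.21 to 0.50, adjusted p = 0.825) and *Sox9* 0.45 (-0.09 to 1.00, adjusted p = 0.637). *Lrig1*, an ERBB inhibitor, had 0.30 (-0.03 to 0.62, adjusted p = 0.613). The reserve stem cell genes *Hopx* and *Bmi1* had 0.30 (-0.26 to 0.86, adjusted p = 0.783) and -0.20 (-0.50 to 0.094, adjusted p = 0.704). When Mtgr1-/- mouse 2 was left out, *Sox9* passed with 0.76 (adjusted p = 0.00656), *Lrig1* with 0.49 (adjusted p = 0.00462) and *Hopx* with 0.37 (adjusted p = 0.022). Of 22 Wnt target genes tested, 0 were called with all mice (limma; 6 had an unadjusted p under 0.05, edgeR called 1 and DESeq2 4), where 9.07% of all genes had an unadjusted p under 0.05. Without Mtgr1-/- mouse 2, 6 moved up and 1 down, beside 12.6% and 9.81% of all genes.

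Of 40 mitosis and 40 DNA replication genes, 0 were called by limma with all mice, where 0 had an unadjusted p under 0.05, and 0 by edgeR or DESeq2 on the 11 libraries. *Mki67*, the Ki67 antigen of cycling cells, had 15088, 14441 and 14300.4 in WT and 6499, 8764 and 5272 in Mtgr1-/- at D1 and 16446, 14666 and 16527 against 10075, 6108 and 8178 at D3. Mouse 2 was thus the highest of the Mtgr1-/- libraries at D1 and the lowest at D3. The interaction of *Mki67* was 0.13 (95% interval -0.45 to 0.71, adjusted p = 0.918) with all mice and 0.51 (adjusted p = 0.0166) without Mtgr1-/- mouse 2. *Cdk4*, a kinase of early cell cycle, had 1872, 2556 and 1785 in Mtgr1-/- at D1 and 4286, 2717 and 4415 at D3, with the same inversion in mouse 2, and an interaction of 0.29 (-0.26 to 0.84). *Cdk1* and *Cdk2* had interactions of 0.14 (-0.43 to 0.71) and 0.20 (-0.38 to 0.79). *Myc* had 0.026 (-0.42 to 0.47). The inhibitors *Cdkn1a*, *Cdkn2b* and *Cdkn1c* had -0.0048 (-0.48 to 0.47), 0.14 (-0.61 to 0.88) and -0.28 (-1.41 to 0.85), and the adjusted p of these 7 genes was 0.784 to 0.998. Leaving out Mtgr1-/- mouse 2, *Cdk4* passed with 0.68 (adjusted p = 0.00196), *Cdk1* with 0.50 (adjusted p = 0.0237) and *Cdk2* with 0.57 (adjusted p = 0.0193). The adjusted p of the other 4 genes was then 0.0732 to 0.391.

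Per mouse, the 40 mitosis genes had median changes from D1 to D3 of 0.10, 0.077 and 0.18 in WT mice 1, 2 and 3 and of 0.57, -0.39 and 0.70 in Mtgr1-/- mice 1, 2 and 3. The 40 DNA replication genes had 0.15, 0.17 and 0.17 in WT and 0.69, -0.27 and 0.58 in Mtgr1-/-. Ribosome biogenesis genes had -0.055, 0.012 and -0.04 in WT and 0.55, -0.28 and 0.66 in Mtgr1-/-. In these 3 lists, Mtgr1-/- mice 1 and 3 moved up more than any WT mouse and Mtgr1-/- mouse 2 moved down. When Mtgr1-/- mouse 2 was left out, 33 of 40 mitosis, 24 of 40 DNA replication and 32 of 38 ribosome biogenesis genes moved up and 0 moved down, beside 12.6% of all genes up. All 3 lists were lower in Mtgr1-/- on both days, with median differences of -1.03, -1.24 and -0.90 at D1, so a positive interaction narrows them. Each mouse was left out in turn, and Mtgr1-/- mouse 2 was singled out after its values were seen.

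Enterocyte genes showed the mirror image. The 46 tested enterocyte genes had median changes of -0.50, -0.33 and -0.12 in WT and -0.90, 0.34 and -0.89 in Mtgr1-/-, and the 27 fat absorption genes -0.54, -0.26 and -0.20 and -0.92, 0.24 and -0.88. Mtgr1-/- mice 1 and 3 fell more than any WT mouse, and Mtgr1-/- mouse 2 rose. With all mice, *Xpnpep2* was the 1 enterocyte gene called, and the median interaction of the list was -0.18. Without Mtgr1-/- mouse 2, 25 enterocyte genes moved down and 2 up, beside 9.81% of all genes down. That fit leaves out the mouse that moved opposite in this list, so its calls are no independent evidence of the direction. *Dpp4*, a brush border peptidase, had an interaction of -0.74 (adjusted p = 0.206) with all mice and -1.03 (adjusted p = 0.000386) without that mouse. *Slc2a5*, the fructose transporter, had -1.23 (adjusted p = 0.21) and -1.58 (adjusted p = 0.00414). *Lgals3*, galectin 3, went the other way within the list, with 2.30 (adjusted p = 0.0725).

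**Figure D5:**
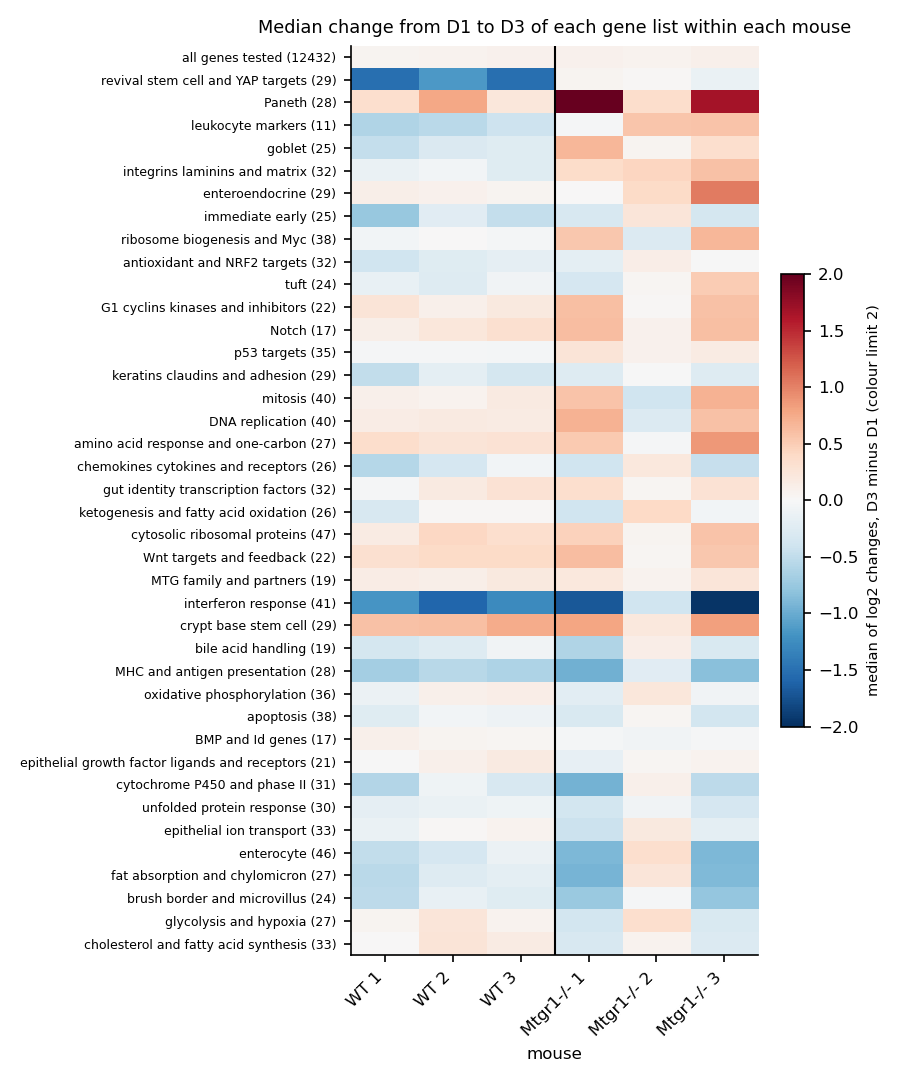
Rows are all tested genes and the gene lists with at least 10 tested members, with the number tested in parentheses, and columns are the 6 mice. The colour gives the median over a list of the change from D1 to D3 within a mouse, on the log2(normalized count + 1) scale and saturating at 2. The revival list is blue in the 3 WT mice and near white in the 3 Mtgr1-/- mice, and the column of Mtgr1-/- mouse 2 is opposite to those of Mtgr1-/- mice 1 and 3 for mitosis, DNA replication and enterocyte genes.

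The goblet and Paneth lists had large positive medians without a called member. The 25 goblet genes had a median interaction of 0.88 and the 28 Paneth genes of 1.04, with medians at D1 of -3.75 and -5.61 and at D3 of -2.31 and -4.60. In the limma fit with all mice 0 members of either list were called. Of the goblet genes 14 had an unadjusted p under 0.05, edgeR called 1 up and 0 down, and DESeq2 6 up and 1 down. Over all 12432 genes, edgeR called 99 up and 48 down and DESeq2 311 up and 266 down. Of the Paneth genes 4 had an unadjusted p under 0.05, and edgeR and DESeq2 each called 1, down and thus opposite to the median. With a fixed mouse term 5 goblet and 3 Paneth genes moved up, beside 1.24% of all genes. Leaving out Mtgr1-/- mouse 2, 14 goblet genes moved up and 2 down, and 10 Paneth genes up and 2 down, beside 12.6% of all genes up and 9.81% down. The median changes per mouse of the Paneth genes were 0.34, 0.77 and 0.23 in WT and 2.11, 0.36 and 1.66 in Mtgr1-/-. The 30 Paneth genes listed on both days summed to 10238, 50718 and 22981 normalized counts in Mtgr1-/- mice 1, 2 and 3 at D1. At D3 these sums were 8087, 90403 and 12365. They fell in Mtgr1-/- mice 1 and 3, opposite to the median changes of these mice, and WT sums rose. The 26 goblet genes listed on both days had sums that fell in all 6 mice. These went from 122750, 100953 and 100712 to 68809, 69295 and 65526 in WT. In Mtgr1-/- they went from 68394, 56553 and 81984 to 33113, 50893 and 38512. A sum is led by the genes with the most counts, and a median weighs each gene alike. *Bcas1* was nearest to the threshold, with an interaction of 2.20 ± 0.43 (adjusted p = 0.0522). *Clca1*, a goblet cell secreted protein, had means of 11252 in WT and 730.3 in Mtgr1-/- at D1 and 2139 and 487 at D3, so that its smaller difference at D3 came with a fall in both genotypes. *Mmp7*, the Paneth cell protease that activates defensins, had 1611 and 57.4 at D1 and 2114 and 207 at D3 (interaction 2.15 ± 0.93, adjusted p = 0.518). Defensin genes are near-identical copies, so their counts may be split among members.

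Several lists had no call in limma with all mice and a small median. Interferon response genes fell in all 6 mice, with median changes of -1.19, -1.58 and -1.27 in WT and -1.70, -0.40 and -1.97 in Mtgr1-/-, and had a median interaction of -0.0081 with 0 of 41 called (limma; 3 had an unadjusted p under 0.05, edgeR called 0 and DESeq2 0). The p53 target list (35 genes) had a median of 0.083, apoptosis genes (38) of -0.055, and oxidative phosphorylation genes (36) of -0.067, each with 0 called in the limma fit with all mice. Of the p53 targets 4 had an unadjusted p under 0.05, edgeR called 0 and DESeq2 4. Of the apoptosis genes 4 had an unadjusted p under 0.05, edgeR called 0 and DESeq2 2, and of the oxidative phosphorylation genes 0 had an unadjusted p under 0.05, edgeR called 0 and DESeq2 0. In the limma fit, 9.07% of all genes had an unadjusted p under 0.05. Without Mtgr1-/- mouse 2, 2 apoptosis genes moved up and 10 down, and 7 p53 targets up and 5 down. In that fit 3 interferon response genes moved up and 7 down, and 0 oxidative phosphorylation genes up and 1 down. Over all genes 12.6% moved up and 9.81% down.

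Most stromal markers were at or near 0, but not all, and leukocyte markers were low. Of 11 fibroblast and stromal markers listed on both days, 6 stayed under 10 normalized counts in every library, among them *Col1a1*, *Pdgfra* and *Acta2*, and their summed level (3243 to 6545 in WT and 7269 to 12802 in Mtgr1-/- at D1) was mostly *Gsn*, which epithelium also expresses. At D3 the sum was 1270.1 to 1563 in WT and 3604 to 3967 in Mtgr1-/-. *Vim*, vimentin, had means of 192 in WT and 24.2 in Mtgr1-/- at D1 and 159 and 45 at D3, and *Pdgfrb*, a receptor of pericytes and fibroblasts, 11.8 and 35.4 at D1 and 18.9 and 26.7 at D3. The 25 leukocyte markers listed on both days summed to 884 to 1330.0 in WT and 372 to 1665 in Mtgr1-/- at D1, and to 819 to 835 and 505 to 1899.8 at D3. The highest sum on both days was that of Mtgr1-/- mouse 3, and 0 of the 11 tested leukocyte markers were called by limma with all mice, or by edgeR or DESeq2 on the 11 libraries, with 0 at an unadjusted p under 0.05 in limma. The median interaction of these 11 was 0.61, and all 11 values were positive. The largest part of the WT sums was *Kit*, with means of 448 at D1 and 439 at D3, against 54 and 52.9 in Mtgr1-/-. *Ptprc* had means of 73.4 in WT and 71.4 in Mtgr1-/- at D1 and 13.2 and 46.8 at D3. *Cd14* was higher at D3 in both genotypes, with 166 and 162 at D1 and 221 and 227 at D3. The part of stromal and leukocyte cells in the results above was not tested. Endothelial markers summed to 186 to 415 over the 12 libraries, with 0 of 5 tested markers called by limma with all mice, or by edgeR or DESeq2 on the 11 libraries, and 0 at an unadjusted p under 0.05 in limma.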

How the data were processed

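RNA was measured by stranded mRNA sequencing (single reads of 50 bp) in 12 enteroid libraries. The authors used fastp 0.20.0 for trimming and Salmon 1.3.0 for transcript quantification against GENCODE mouse release M21 (GRCm38), summed them per gene with tximeta, left out genes with almost no counts and normalized with DESeq2 1.26.0. The deposited signal is a gene's count divided by 1 factor per library, set within the table of each day. The authors' baseMean, a mean signal, and their DESeq2 log2 fold changes, standard errors, score (the Wald statistic) and p-value columns were also deposited and were not used. The table of freshly isolated crypts was not used here.

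Gene IDs present on both days with a mean of at least 10 on each were fitted with limma 3.58.1 (R 4.3.3) on log2(normalized count + 1), 1 mean per group, the mouse as a random effect (duplicateCorrelation, within-mouse correlation -0.061) and eBayes with a trend. A factor shared by a table cancels in the interaction. Tests were two-sided, with Benjamini-Hochberg adjustment over 12432 genes and a threshold of 0.05. Such log2 differences understate changes of low genes. D1 and D3 libraries of the same number come from the same mouse by the labels, and their deviations from the group means correlated across genes at 0.102 to 0.443 in all 6 mice. For D1 and D3 libraries of different mice of a genotype the range was -0.419 to 0.121, so the ranges overlapped. Whole reads were recovered from the value steps in 11 libraries (100% of values whole within 0.01, 22035316 to 28621990 reads, median 26713507), and Mtgr1-/- D3 library 2 could not be recovered. On these reads edgeR 4.0.16 and DESeq2 1.42.0 were run with 1 mean per group and no mouse term. Their counts thus leave out the pairing of D1 and D3 libraries and differ in this from the limma fit. On simulated data of 12432 genes, 55 of 100 genes with a 2-fold interaction and 99 of 100 with a 4-fold one were recovered, with 6 others called. The simulated counts had the same dispersion for every gene, no mouse effect and no mouse set apart. This recovery is therefore not the power of the test in the real libraries, and a gene not called is not shown to be unchanged.

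Genes were named by rule: up to 6 per class with the largest interaction among called genes whose mean reached 50 and whose within-mouse changes did not overlap between genotypes, up to 3 called members per list and direction, and the genes the study names. A few genes are not reported here. *Eya2*, *Vgll3*, *Tead4*, *Plaur*, *Adam8*, *Nfatc2*, *Nid2*, *Lrat* and uncalled list members were added after their values were seen. The members and the 45 gene lists were chosen with earlier results of these data known. Alternatives were other pseudocounts, filters, scalings, block terms, weights and tools, and each mouse and library left out; 3 fits without Mtgr1-/- mouse 2 were added after the data were seen.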

Additional observations from a re-analysis of the deposited data

Results flagged for a closer look

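The named genes below were singled out because their genotype effect differed between the 24 h and 72 h cultures by the interaction test (limma, adjusted p under 0.05), which is also the test of the report, so they are no further evidence. Values are the genotype difference at D3 minus that at D1, on the log2 scale. Among genes whose difference widened, it was 3.31 for *Lama3*, 3.31 for *Aldh1a3*, 3.06 for *P2rx2*, 2.81 for *F3*, 2.71 for *Arhgap40*, 2.70 for *Cav2*, 2.62 for *Sprr1a*, 2.52 for *Ly6d*, 2.47 for *Serpinb5*, 2.26 for *Ereg*, 2.22 for *Fosl1*, 2.06 for *Il1rn*, 2.01 for *Slc10a2*, 1.89 for *Areg*, 1.44 for *Cbr3*, -1.24 for *Gm1123* and 1.21 for *Hk1*. Among genes whose difference narrowed, it was -4.68 for *Prl2a1*, 2.45 for *Olfm4*, 2.37 for *Thbs1*, 2.10 for *Rgs19*, -1.50 for *Ces2a*, -1.42 for *Xpnpep2*, -1.37 for *Cpe*, 1.21 for *Tnfrsf1b*, 0.54 for *Chtf8* and -0.47 for *Lman1*. Among genes whose difference reversed, it was 2.86 for *Anxa10*, 1.93 for *Tns4*, 1.71 for *Sh3pxd2a*, 1.58 for *Kcnk6* and -0.97 for *Acss2*. Groups of 3 libraries are too small for a check of single libraries against the rest of their group.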

How the results depend on the processing

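The direction of the interaction was kept for each of the 61 genes in each of the 34 alternatives that tested it, and the number of calls was not. Leaving out a mouse could not change this direction, since the within-mouse changes of the 61 genes did not overlap between genotypes. *Sprr1a* passed in 33 of the 34 alternatives and had an adjusted p of 0.0616 in the other, without WT mouse 3. *Lman1* passed in 12. Counts are given as all calls, then up, then down, beside 61, 52 and 9. With the mouse as a fixed replicate block they were 174, 154 and 20, and without any mouse effect 75, 64 and 11. With the mouse number as replicate block within each day they were 38, 34 and 4. That fit pairs WT and Mtgr1-/- mice that share only a number, and their deviations correlated at -0.031 to 0.23. A minimum mean of 50 gave 26, 21 and 5 of 10832 genes tested, and no trend in the variance 28, 25 and 3. Quantile normalization gave 85, 70 and 15, and weights per library, lowest for Mtgr1-/- mouse 2 at both days (0.284 and 0.285), 1618, 872 and 746. On recovered reads of 11 libraries and without a mouse term, edgeR gave 147, 99 and 48 and DESeq2 577, 311 and 266. The 3 fits without Mtgr1-/- mouse 2 were added after seeing the data, with 2694, 1541 and 1153 for the fixed block, 1568, 940 and 628 for edgeR, and 2060, 1029 and 1031 for DESeq2. Leaving out each mouse or library in turn gave 0 to 2786 calls, 0 to 1567 up and 0 to 1219 down. Leaving out single libraries 1, 2 and 3 gave 9, 118 and 13 calls for WT D1, 16, 1140 and 12 for Mtgr1-/- D1, 23, 9 and 22 for WT D3, and 13, 914 and 17 for Mtgr1-/- D3. The cause of these shifts was not tested. Other pseudocounts (0.1 and 8), no filter and median-ratio scaling gave 57 to 64 calls. Fitting each day alone called 7384 genes at D1 and 7389 at D3, beside 8040 and 7356. Genes with a mean under 10 normalized counts on either day were not tested at this depth.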

Other observations

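Of the 61 genes, 38 were in none of the gene lists. All values here were looked at after the calls were made. *Tnfrsf11b*, which encodes osteoprotegerin, the decoy receptor for RANKL, had 43.9, 32.3 and 35.2 in WT and 28, 37 and 19.9 in Mtgr1-/- at D1. At D3 WT had 43.9, 39.2 and 35.8 and Mtgr1-/- had 183, 147 and 135 (interaction 2.35 ± 0.36, adjusted p = 0.0199), so that the whole movement lay in Mtgr1-/-. *Cadm1*, a cell adhesion molecule, and *Elk3*, an ETS factor, were already apart at D1, by 1.51 and 1.70 on the log2 scale. *Cadm1* had 72.5 ± 19.6 (SD, n = 3) in Mtgr1-/- at D1 and 239.6 ± 11.4 at D3, and 24.8 ± 6.61 and 22.3 ± 2.61 in WT. *Elk3* had 81.5 ± 8.14 in Mtgr1-/- at D1 and 201 ± 28.2 at D3, and 24.5 ± 3.21 and 19.2 ± 2.09 in WT. With a fixed mouse term *Elk3* did not pass (adjusted p = 0.052). *Gsap*, the gamma-secretase activating protein, rose in Mtgr1-/- from 17.5, 22.8 and 21 to 96.7, 78.5 and 65.1 while WT had 29.3, 18.7 and 16.8 and 15.2, 16 and 11.6.

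Other genes fell in WT. *Capn2*, a calcium-dependent protease, fell in WT from 1531, 941 and 1734 to 318, 261 and 394 and had 2765, 2171 and 2528 and 2429, 2306 and 1882 in Mtgr1-/- (interaction 1.91 ± 0.32, adjusted p = 0.0277). *Myof*, myoferlin, which acts in membrane repair, had an interaction of 1.91 ± 0.37 (adjusted p = 0.0485) and the calcium-binding *S100a14* of 2.07 ± 0.34 (adjusted p = 0.0277). *Clcf1*, a cytokine of the IL-6 family, had 2.12 ± 0.40 (adjusted p = 0.0437), and *Dok2*, a docking protein of tyrosine kinases, 2.29 ± 0.41 (adjusted p = 0.0388). *Clic3*, *Cwh43*, *Sptssb*, *Slc35e4*, *Fgd3*, *Pdlim7* and *Lpcat4* also moved up, by 3.16, 2.63, 2.07, 1.88, 1.88, 1.12 and 0.85. *Lpcat4* did not pass with a fixed mouse term (adjusted p = 0.0615).

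Of the 44 gene lists with a tested member, 14 held a called gene and 30 held none in limma. The 47 cytosolic ribosomal protein genes had a median interaction of 0.061 with 42 positive, and 0 had an unadjusted p under 0.05, edgeR called 0 and DESeq2 0. The 28 antigen presentation genes had -0.031 and the 30 genes of the unfolded protein response -0.084. Without Mtgr1-/- mouse 2, 1 antigen presentation gene moved up and 9 down, and 1 unfolded protein response gene up and 3 down. The 24 brush border genes had -0.14, with 12 down and 1 up without Mtgr1-/- mouse 2, beside 9.81% of all genes down and 12.6% up. The 24 tuft cell genes had 0.18 and the 29 keratin, claudin and adhesion genes 0.17. Without Mtgr1-/- mouse 2, narrowing was the commonest class, with 2341 of 2786 called genes, beside 390 that widened and 55 that reversed.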
